A study of Mus musculus with 12 samples.

Results

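The nuclear-encoded genes of the mitochondrial respiratory chain and ATP synthase were taken by name from an array study of mouse microglia: the Nduf genes of complex I with its Ndufaf assembly factors, Sdha to Sdhd, the Uqcr genes and Cyc1, Cycs, the Cox4 to Cox8 genes and the Atp5 genes, without names marked as pseudogenes. The names picked 91 of 19938 genes that had a probe set with 1 gene symbol, or 118 of 35557 probe sets. They are 36 genes of complex I, 7 complex I assembly factors, 4 of complex II, 9 of complex III, 1 of cytochrome c, 17 of complex IV and 17 of ATP synthase. Where a gene had several probe sets the brightest stood for it. A gene was tested if its mean signal was above the 30th percentile of all probe sets, 5.36 on the log2 scale, and 90 of the 91 passed; Cox7b2, a testis isoform of a complex IV subunit, read 4.10 on average and was not tested.

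RNA of cultured primary microglia, which are macrophages that live in the brain, had been hybridised to 12 Affymetrix arrays (Mouse Gene 1.0 ST), 3 for each of 4 groups. The groups were cells labelled as TLR4 knockout after 24 h of low oxygen or glucose, which the labels call ischemic, the same genotype after 24 h of control conditions, wild-type cells after ischemia, and wild-type cells after control conditions. A further 24 h under normal conditions, the reperfusion, followed in every group, so each value was read after recovery. Tlr4 encodes the receptor for bacterial lipopolysaccharide. The labels give neither the strain nor the age of the mice and do not describe the knockout allele. Nor do they tell if replicate arrays had their own culture or animal; the p-values reflect the spread among these arrays, which may be technical.

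Complexes I to IV pass electrons from NADH and succinate to oxygen, with cytochrome c as the soluble carrier between complexes III and IV. All of them but complex II pump protons out of the mitochondrial matrix. ATP synthase, also called complex V, lets the protons back in and makes ATP. Apart from complex II, each complex is built from subunits of both the nuclear and the mitochondrial genome, so its supply depends on both. The chain uses most of the oxygen a cell takes up, and in hypoxia cells are known to exchange some subunits for isoforms and to restrain its activity.

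Nuclear respiratory factor 1 (NRF1) and the ETS-family factor GABP are known to bind promoters of many of these genes. The 250 bases before the annotated start (RefSeq, build GRCm38.p6) were available for 74 of the 91 genes and for 27025 genes in all. The letters GCGCATGC, a core of the NRF1 motif, stood on either strand in 10 of the 74 (13.5%), against 2.56% of all genes. The letters CCGGAAG, a core of the GABP motif, stood in 13 (17.6%), against 7.83% of all genes. At least 1 of the 2 occurred in 21 of the 74, and the matches overlapped each other in 0. The letters ACGTG, a core of the hypoxia-inducible factor motif, stood in 21.6%, against 18.5% of all genes. Of the other letters searched on both strands, CCAAT stood in 44.6% against 37.5%, AAGGTCA (estrogen-related receptors) in 5.41% against 4.7%, and AAGATGGC (YY1) in 1.35% against 1.83%. A match describes the letters and is no evidence of binding. The stretches below belong to 3 genes. These are the genes whose averaged rise after ischemia was called in the paired fit described further on and in all 8 variations of it. Among the other genes called there for the averaged effect, Atp5h had the GABP letters. Ndufs4, Ndufb3, Ndufc1, Ndufs5, Ndufa3, Ndufa10, Ndufaf2, Uqcr10, Cox7a2, Cox7b, Atp5md and Atp5pb had neither the NRF1 nor the GABP letters. The rest had no promoter available. The capitals mark the NRF1 or GABP letters only, and matches to the other motifs are left in lower case. For Cycs (chr6:50566570-50566819, minus strand) the NRF1 letters, here as their reverse complement, begin 60 bases before the start. For Ndufa6 (chr15:82354292-82354541, minus strand) they begin 83 bases before it, and for Ndufaf1 (chr2:119662835-119663084, minus strand) the GABP letters begin 18 bases before it.
Cycs: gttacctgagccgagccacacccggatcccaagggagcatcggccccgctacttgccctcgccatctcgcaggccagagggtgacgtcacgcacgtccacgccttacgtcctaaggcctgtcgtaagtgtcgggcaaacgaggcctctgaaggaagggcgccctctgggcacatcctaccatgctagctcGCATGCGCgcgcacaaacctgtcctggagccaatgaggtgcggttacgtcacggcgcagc
Ndufa6: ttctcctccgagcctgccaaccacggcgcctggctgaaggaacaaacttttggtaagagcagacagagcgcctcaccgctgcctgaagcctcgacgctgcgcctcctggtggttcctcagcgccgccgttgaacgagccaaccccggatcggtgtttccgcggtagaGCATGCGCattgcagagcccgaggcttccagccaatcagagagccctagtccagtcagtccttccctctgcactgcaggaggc
Ndufaf1: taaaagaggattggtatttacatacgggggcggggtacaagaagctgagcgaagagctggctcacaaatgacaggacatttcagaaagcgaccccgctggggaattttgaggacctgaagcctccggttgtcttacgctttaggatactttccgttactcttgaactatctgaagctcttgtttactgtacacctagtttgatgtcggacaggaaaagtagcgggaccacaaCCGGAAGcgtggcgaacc

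Some labels and arrays bear on every value below. The source name of the wild-type ischemia arrays reads as a control condition, whereas by title and design text they are hypoxic, and grouping went by title. Myocytes are named in the extraction protocol. All 9 matched microglia markers were above the dim limit. Their means over all arrays ran from 5.75 (P2ry12) and 6.51 (Tmem119) to 13.15 (Cd68), against the limit of 5.36. Of 10 striated muscle markers 9 were also above it, and Des was not; their mean log2 signal per array was 6.09 to 6.37 over the knockout-labelled arrays and 6.12 to 6.30 over the wild-type arrays. Tlr4 itself read 8.76 ± 0.17 and 8.66 ± 0.29 in knockout-labelled ischemia and control arrays, against 8.71 ± 0.26 and 8.76 ± 0.12 in wild-type ones (log2, SD, n = 3 each). These signals showed no loss of Tlr4 RNA, and where the probe set lies relative to any deleted part was not checked. The genotype thus rests on the labels alone, and these arrays are called knockout-labelled. Both wild-type arrays numbered 2 stood apart, with mean microglia marker signals of 10.34 after ischemia and 10.34 in control conditions, against 9.74 to 10.11 over the other 10 arrays. In the same order, Aif1 read 9.75 and 9.30 and Cx3cr1 10.16 and 10.32, above all other arrays. Not all markers were raised there: Cd68 (13.12 and 13.11) and Tyrobp (11.97 and 12.05) lay within the range of the other arrays. Knockout-labelled control array 3 had a median correlation of 0.976 with the other arrays, against 0.982 or more for the rest.

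After ischemia and reperfusion most chain genes were slightly higher in wild-type cells, while in knockout-labelled cells the direction of the median depended on the scaling of the arrays. In knockout-labelled cells 54 of the 90 tested genes were higher after ischemia. Their median log2 change was 0.061, against -0.0009 over all 15273 genes tested. Quantile normalization gave a median of -0.010 and cyclic loess one of -0.011. Leaving out 1 array of these groups gave 0.013 (46 of 90 higher, without ischemia array 3) to 0.11 (71 of 90, without ischemia array 2). In wild-type cells 83 of the 90 were higher, with a median change of 0.23, against 0.012 over all genes. With a stricter limit at the 50th percentile, which kept 84 chain genes, the all-gene medians were 0.031 in knockout-labelled and 0.068 in wild-type cells, and those of the chain genes 0.070 and 0.24. For the difference between the genotypes' changes 0 of the 90 genes were called in either fit described further on. In bulk RNA like this, more cells of a type and more RNA per cell cannot be told apart. The median over the 90 genes of each gene's signal minus its own 12-array mean placed the arrays. It was 0.072, -0.028 and 0.13 in knockout-labelled ischemia arrays 1 to 3, against -0.0047, -0.068 and 0.094 in the control arrays, and these ranges overlap. It was 0.11, 0.079 and 0.077 in wild-type ischemia arrays, against -0.16, 0.0007 and -0.27 in the control arrays. Every wild-type ischemia array lay above every wild-type control array, and control array 2 was the nearest to them. Without that array the wild-type median change was 0.34, and without control array 3 it was 0.17.

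**Figure D1:**
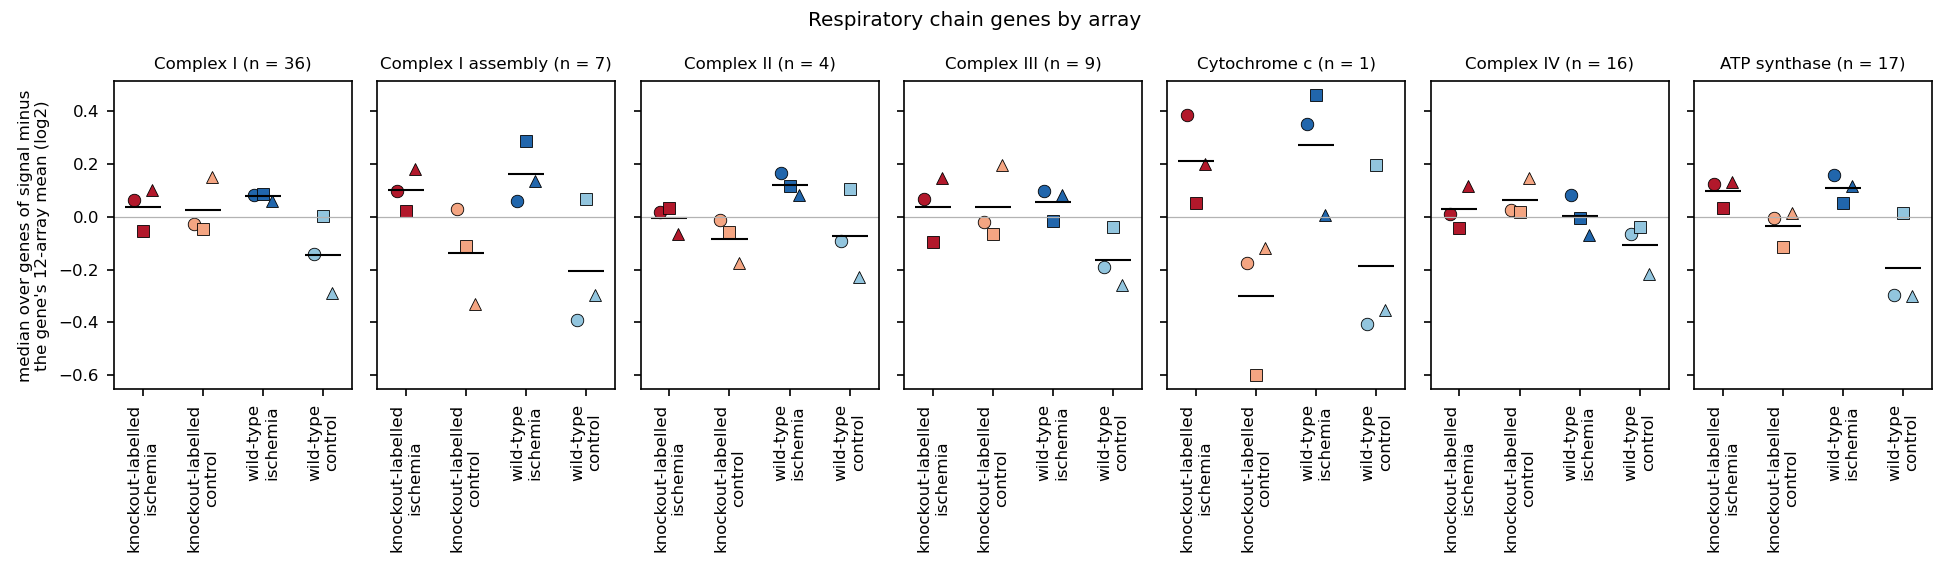
Median over the genes of each chain complex of the signal minus the gene's 12-array mean (vertical axis, log2), for each array; groups run along the horizontal axis, circles, squares and triangles are the arrays numbered 1, 2 and 3, and short lines are group means. The wild-type control arrays 1 and 3 lie lowest for complexes I and III and for ATP synthase, and control array 2 lies nearer to the other groups.

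With all 12 arrays, single genes passed a test for the ischemia effect when same-numbered arrays were treated as pairs and not otherwise. With 1 mean per group, limma called 0 of the 90 at an adjusted p under 0.05 for the ischemia effect averaged over genotypes, where 0.00655% of all genes tested were called; 32 had an unadjusted p under 0.05 in the higher direction and 2 in the lower. Without wild-type control array 2 the same fit called 7 averaged over genotypes and 3 in wild-type cells (Atp5md, Cox6b1 and Ndufs4). Same-numbered arrays of a genotype deviated together over all genes, so ischemia and control arrays of 1 number were also compared as a pair (the paired fit). The paired fit called 19 of the 90 (21.1%), 18 higher and 1 lower, against 12.5% of all genes tested. In wild-type cells alone limma called 0 of the 90, with 33 higher and 2 lower at an unadjusted p under 0.05 (0.0131% of all genes called), and the paired fit called 8 (8.89%), all higher, against 3.73% of all genes. In knockout-labelled cells alone it called 0 without the pairing, with 5 higher and 1 lower at an unadjusted p under 0.05 (0% of all genes called), and 0 in the paired fit (0.648% of all genes), where Cycs came nearest (limma adjusted p = 0.0575). The paired fit was varied in 8 ways, without each of the 6 pairs and after quantile normalization or cyclic loess, and the counts moved. Without wild-type pair 1 or without wild-type pair 3 the paired fit called 0 of the 90 in wild-type cells, and without wild-type pair 2 it called 20. Without knockout-labelled pair 2 it called 3 there, from the same wild-type arrays. The genotypes share 1 estimate of spread in this fit, and its part in the drop was not tested. Of the 19 genes called averaged over genotypes, 4, 18 and 8 kept the call without wild-type pairs 1, 2 and 3, and 13, 5 and 8 without knockout-labelled pairs 1, 2 and 3. In knockout-labelled cells the fit called Cycs and Uqcrb without wild-type pair 1, and Ndufaf1, Ndufaf4 and Ndufs1 without knockout-labelled pair 1.

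The groups could also be compared array by array. In knockout-labelled cells all 3 ischemia arrays lay above all 3 control arrays for 9 genes (10% of the 90, against 7.94% of all genes) and below them for 2 (2.22%, against 6.36%). In wild-type cells they lay above for 31 genes (34.4%, against 9.38%) and below for 3 (3.33%, against 12.3%). The change was upward in all 6 same-numbered pairs for 22 of the 90, against 10.7% of all genes, and downward in all 6 for 2, Cox8c and Ndufa4l2, against 6.36% of all genes. By pair, the median change over the 90 was 0.078, -0.0073 and 0.041 in knockout-labelled pairs 1 to 3 and 0.30, 0.068 and 0.35 in wild-type pairs. Wild-type pair 2 thus lay nearer to the knockout-labelled pairs than to the other wild-type pairs.

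**Figure D2:**
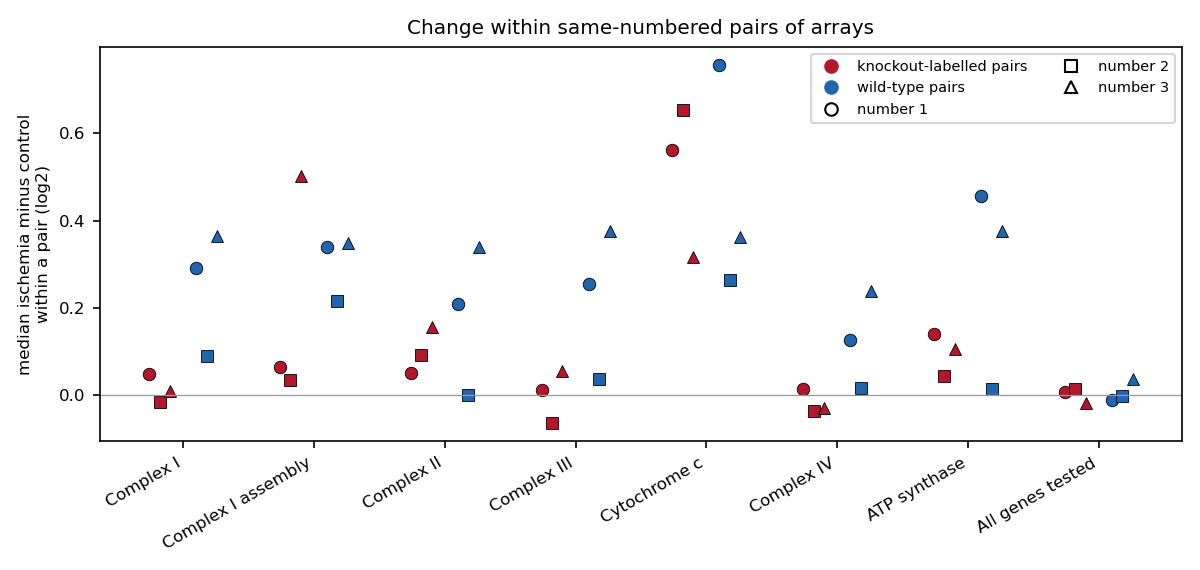
Median change after ischemia within each same-numbered pair of arrays (vertical axis, log2) for each chain complex and for all 15273 genes tested; red and blue symbols are knockout-labelled and wild-type pairs, and their shape gives the number. Wild-type pairs 1 and 3 lie between 0.13 and 0.46 in complexes I to V, and wild-type pair 2 lies near 0 for complexes II, III and IV and ATP synthase.

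Cycs encodes cytochrome c, which carries electrons in the chain and, once released into the cytosol, helps start apoptosis. Its signal was 9.48, 9.15 and 9.29 in knockout-labelled ischemia arrays 1 to 3, against 8.92, 8.49 and 8.98 in knockout-labelled control arrays. In wild-type cells it was 9.45, 9.56 and 9.10 after ischemia, against 8.69, 9.29 and 8.74 in control conditions. All knockout-labelled ischemia arrays lay above all knockout-labelled controls, while the wild-type groups overlapped through control array 2; within pairs all 6 changes were upward. It rose by 0.49 on the log2 scale averaged over genotypes (SE 0.080, 1.40-fold, limma paired-fit adjusted p = 0.00416; 0.139 without the pairing). The changes were 0.51 in knockout-labelled and 0.46 in wild-type cells, and their difference had a 95% interval of -0.29 to 0.39. The other 2 probe sets with the symbol were also higher, by 0.39 and 0.17 averaged. Cytochrome c has near-identical processed copies in the mouse genome, and which copy a probe set reads was not tested.

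In complex I, the NADH dehydrogenase that starts the chain, 31 of the 36 genes were higher after ischemia averaged over genotypes, with a median change of 0.17. The medians were 0.046 in knockout-labelled cells, with 19 of 36 higher, and 0.26 in wild-type cells, with 34 of 36 higher. The paired fit of limma called 8 of the 36 averaged over genotypes, where it called 12.5% of all genes tested. Of these 8, Ndufs4, Ndufa6, Ndufb3, Ndufc1, Ndufs5, Ndufa3 and Ndufa10 rose and Ndufa4l2 fell.

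Ndufs4 is an accessory subunit of the arm that takes electrons from NADH, and its loss is a known cause of a Leigh-like brain disease in mice. Its signal was 8.64, 8.86 and 8.58 in knockout-labelled ischemia arrays, against 8.44, 8.35 and 8.24 in their controls. In wild-type cells it was 8.89, 8.90 and 8.88 after ischemia, against 7.94, 8.80 and 8.09 in control conditions. The groups did not overlap in either genotype, though wild-type control array 2 came close to the ischemia arrays. The averaged change was 0.48 (SE 0.098, limma paired-fit adjusted p = 0.0115), made up of 0.35 in knockout-labelled and 0.61 in wild-type cells. The averaged call was lost without wild-type pair 1 or knockout-labelled pair 2.

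Ndufa6, an accessory subunit at the joint of the NADH arm, read 9.55, 9.30 and 9.28 in knockout-labelled ischemia arrays, against 9.22, 9.16 and 8.82 in their controls. Wild-type cells gave 9.33, 9.50 and 9.32 after ischemia, against 8.80, 9.30 and 8.69 in control conditions. Again no ischemia array lay below a control array of its genotype, and wild-type control array 2 was the high one. The averaged rise was 0.38 (SE 0.077, 1.30-fold, limma paired-fit adjusted p = 0.0109), and the change in knockout-labelled minus that in wild-type cells was -0.14 with a 95% interval of -0.47 to 0.19.

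Ndufb3 lies in the membrane arm, which pumps protons. It read 7.01, 6.98 and 6.73 in knockout-labelled ischemia arrays, against 6.89, 6.40 and 6.50 in their controls, and 7.35, 7.03 and 6.74 in wild-type ischemia arrays, against 6.60, 6.73 and 6.49 in theirs. The knockout-labelled groups overlapped and the wild-type groups did not, and the averaged rise was 0.37 (SE 0.085, limma paired-fit adjusted p = 0.0165), a call lost without wild-type pair 1 or knockout-labelled pair 2. Of the other called complex I subunits, Ndufc1 rose by 0.35, Ndufs5 by 0.32, Ndufa3 by 0.28 and Ndufa10 by 0.27 (limma paired-fit adjusted p = 0.0445, 0.0277, 0.0459 and 0.0365). Of the 8 variations of the paired fit, 1 kept the call of Ndufa3 and 2 each those of Ndufc1, Ndufs5 and Ndufa10. Ndufa10 had the smallest difference between genotypes of these 4, at 0.24 in knockout-labelled and 0.30 in wild-type cells.

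Ndufb9, another membrane-arm subunit, was the 1 gene of the 90 that was lower in all 3 knockout-labelled pairs and higher in all 3 wild-type pairs, a pattern that 2.02% of all genes showed. It read 8.08, 8.02 and 8.62 in knockout-labelled ischemia arrays, against 8.31, 8.08 and 8.62 in their controls. In wild-type cells it read 8.30, 8.32 and 8.54 after ischemia, against 7.88, 8.09 and 7.89 in control conditions. The knockout-labelled arrays numbered 3 were equal to 2 decimals, so the direction there rests mainly on pairs 1 and 2. In wild-type cells Ndufb9 rose by 0.43 (SE 0.10, limma paired-fit adjusted p = 0.0355). The difference of its changes, -0.53, did not pass (limma paired-fit adjusted p = 0.285).

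Ndufa4l2 ran the other way. It is a paralog of Ndufa4 that hypoxia-inducible factor is known to switch on and that is reported to lower complex I activity. Ndufa4l2 read 5.77, 5.71 and 5.86 in knockout-labelled ischemia arrays, against 5.79, 5.99 and 6.19 in their controls, and 5.68, 5.49 and 5.65 in wild-type ischemia arrays, against 6.18, 5.87 and 5.75 in theirs. These signals lie near the dim limit of 5.36. Averaged over genotypes it fell by 0.27 (SE 0.075, limma paired-fit adjusted p = 0.0355). The call was lost without wild-type pair 1 or 2, without knockout-labelled pair 2 or 3, and under both other scalings of the arrays. Ndufa4, named after complex I but known as a complex IV subunit, had changes of 0.070 in knockout-labelled and 0.29 in wild-type cells and was not called. Its wild-type controls read 9.17, 10.14 and 9.15, with array 2 far above the others.

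In knockout-labelled cells 17 of the 36 complex I genes were lower after ischemia. Ndufa11, a membrane-arm subunit, was lower in all 3 knockout-labelled pairs, with a change of -0.28 there and 0.0003 in wild-type cells, and neither was called. Both of its probe sets were lower in knockout-labelled cells, by changes of -0.28 and -0.18. Averaged over genotypes they had -0.14 and 0.056, so the averaged direction depends on the probe set. Ndufs1, the largest iron-sulfur subunit, had 0.40 in knockout-labelled and 0.077 in wild-type cells, and Ndufb2 had -0.16 and 0.12; these also did not pass. Ndufab1, the mitochondrial acyl carrier protein that doubles as a complex I subunit, had 0.070 and 0.27. Ndufa11 and Ndufs1 were chosen for mention after their values were seen.

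All 7 complex I assembly factors were higher averaged over genotypes, with medians of 0.17 in knockout-labelled cells (6 of 7 higher) and 0.31 in wild-type cells (7 of 7 higher). Ndufaf1, which helps to build the membrane arm, read 8.12, 8.03 and 7.61 in knockout-labelled ischemia arrays, against 7.91, 7.38 and 7.11 in their controls. Wild-type cells gave 8.01, 8.35 and 7.87 after ischemia, against 7.36, 8.02 and 7.22 in control conditions. The groups overlapped in both genotypes, while all 6 pairs were higher. The averaged rise was 0.50 (SE 0.078, 1.41-fold, limma paired-fit adjusted p = 0.00336; 0.163 without the pairing), the smallest adjusted p of the 90 genes. Ndufaf1 was also the gene with the smallest adjusted p in wild-type cells, with a rise of 0.54 (limma paired-fit adjusted p = 0.0176). Its change was 0.45 in knockout-labelled cells, where it missed the threshold (limma paired-fit adjusted p = 0.0724). Ndufaf2, which acts late in the assembly of the NADH arm, rose by 0.32 averaged (limma paired-fit adjusted p = 0.0399), a call that 4 of the 8 variations kept. Ndufaf5, the dimmest of the 7, had 0.17 in knockout-labelled and 0.14 in wild-type cells. Ndufaf4, picked after its values were seen, had 0.32 in knockout-labelled and 0.086 in wild-type cells, and Ndufaf3 had -0.085 and 0.33; neither gene passed for the difference of its changes (limma paired-fit adjusted p = 0.674 and 0.473).

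**Figure D3:**
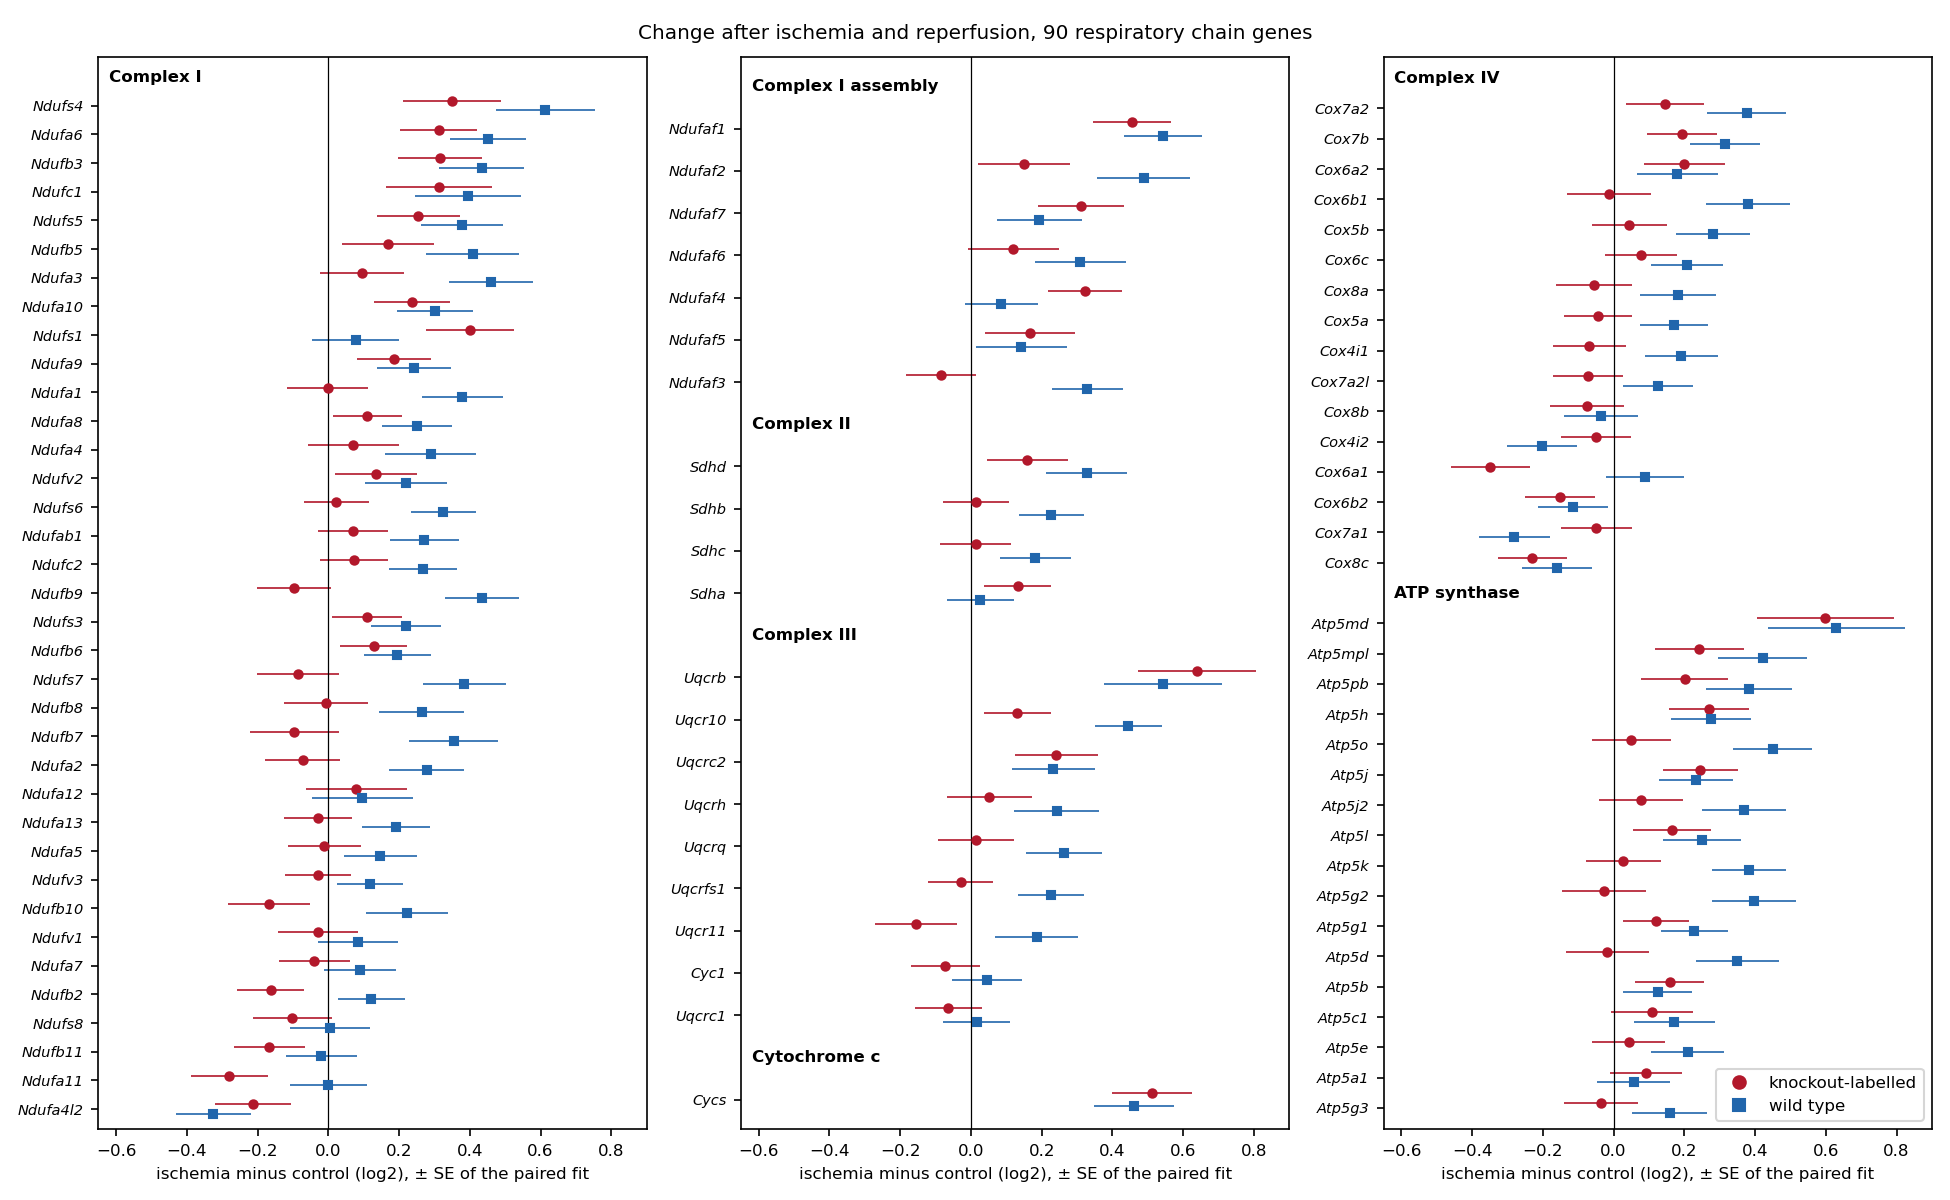
Change after ischemia (horizontal axis, log2, with the SE of the paired fit) of each of the 90 tested genes, in knockout-labelled cells (red circles) and wild-type cells (blue squares), by complex and ordered by the sum of both. Cycs, Ndufaf1, Uqcrb and Atp5md lie at 0.45 or higher in both genotypes, and most other genes have the wild-type value to the right of the knockout-labelled one.

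**Figure D4:**
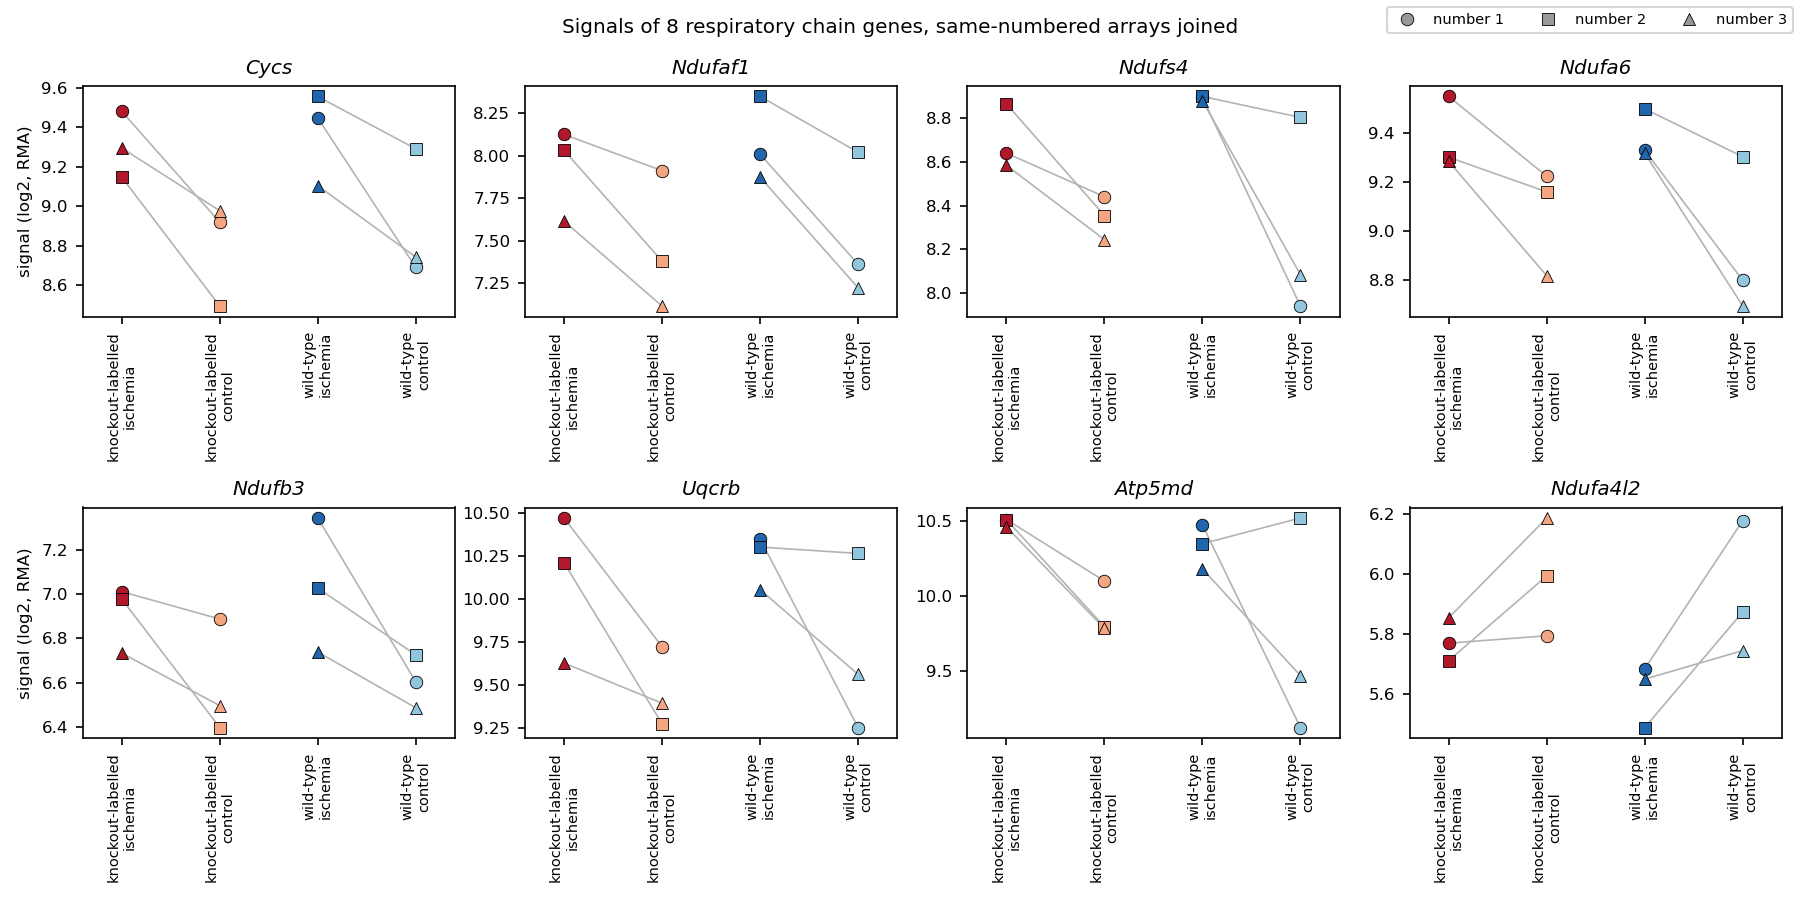
Signals (vertical axis, log2, scaled for each gene) of Cycs, Ndufaf1, Ndufs4, Ndufa6, Ndufb3, Uqcrb, Atp5md and Ndufa4l2 in each array, with lines joining same-numbered arrays of a genotype. Lines slope down from ischemia to control for all but Ndufa4l2, apart from the wild-type pair 2 of Atp5md.

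Complex II, succinate dehydrogenase, feeds electrons from the tricarboxylic acid cycle and is built from nuclear genes alone. All 4 genes were higher in both genotypes, with medians of 0.073 in knockout-labelled and 0.20 in wild-type cells, and 0 of 4 were called. Sdhd, a membrane anchor, had the largest averaged change of the 4 (0.24, limma paired-fit adjusted p = 0.0628). It read 9.27, 9.34 and 9.27 in knockout-labelled ischemia arrays, against 9.21, 9.25 and 8.94 in their controls, and 9.56, 9.40 and 9.64 in wild-type ischemia arrays, against 9.14, 9.40 and 9.09 in theirs. Neither genotype overlapped, although wild-type arrays 2 differed only past the second decimal. The iron-sulfur subunit Sdhb had 0.014 in knockout-labelled and 0.23 in wild-type cells, and the other anchor Sdhc had 0.013 and 0.18. The catalytic flavoprotein Sdha had 0.13 and 0.027.

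Complex III hands electrons on to cytochrome c. Of its 9 genes, 5 were higher in knockout-labelled cells (median 0.013) and all 9 in wild-type cells (median 0.23). The paired fit called Uqcrb and Uqcr10 averaged over genotypes, where it called 12.5% of all genes tested. Uqcrb, a small subunit near the quinone site, read 10.47, 10.21 and 9.63 in knockout-labelled ischemia arrays, against 9.72, 9.28 and 9.40 in their controls. In wild-type cells it read 10.35, 10.30 and 10.06 after ischemia, against 9.25, 10.27 and 9.56 in control conditions. Both genotypes overlapped, and wild-type pair 2 hardly moved. The averaged rise was 0.59 (SE 0.12, 1.51-fold, limma paired-fit adjusted p = 0.0109), and all 3 of its probe sets were higher, by 0.45 to 0.59. It lost the call without knockout-labelled pair 2.

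Uqcr10, another small subunit, read 7.88, 7.77 and 8.09 in knockout-labelled ischemia arrays, against 7.67, 7.67 and 7.99 in their controls, and 7.96, 8.16 and 8.18 in wild-type ischemia arrays, against 7.54, 7.82 and 7.61 in theirs. The wild-type groups did not overlap, and the rise there was 0.44 (SE 0.094, limma paired-fit adjusted p = 0.0225), against a change of 0.13 in knockout-labelled cells. The difference between these changes did not pass (limma paired-fit adjusted p = 0.554). Its averaged call was kept in 4 of the 8 variations. The core proteins Uqcrc1 and Uqcrc2 had averaged changes of -0.024 and 0.24, and Cyc1, the cytochrome c1 subunit, had -0.013; none of these 3 was called, and Uqcrc1 was picked after its values were seen.

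Complex IV, cytochrome c oxidase, was the part of the chain with the lowest median change in both genotypes. Of its 16 tested genes, 5 were higher in knockout-labelled cells (median -0.049) and 11 in wild-type cells (median 0.18). The genes lower in wild-type cells were Cox4i2, Cox6b2, Cox7a1, Cox8b and Cox8c. These are all forms known from muscle, testis or lung, described below. In knockout-labelled cells widely expressed forms were lower too. Cox7a2 and Cox7b rose averaged over genotypes, by 0.26 and 0.25 (limma paired-fit adjusted p = 0.0456 and 0.0331), and 0 of the 16 passed in either genotype alone. These 2 of 16 are the same share as the 12.5% called over all genes, and of the 8 variations of the paired fit only that without wild-type pair 2 kept either call. Cox7b read 9.50, 9.19 and 9.44 in knockout-labelled ischemia arrays, against 9.14, 9.12 and 9.28 in their controls. In wild-type cells it read 9.39, 9.29 and 9.32 after ischemia, against 9.08, 9.10 and 8.88 in control conditions, with no overlap.

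Several complex IV subunits come as a widely expressed form and a form known from muscle, testis or hypoxic lung. Of the wide forms, Cox4i1 had changes of -0.069 in knockout-labelled and 0.19 in wild-type cells, Cox6b1 had -0.013 and 0.38, Cox7a2 had 0.15 and 0.38, and Cox8a had -0.055 and 0.18. Cox6a1 was lower in all 3 knockout-labelled pairs, at 9.98, 9.64 and 10.51 after ischemia, against 10.09, 10.25 and 10.83 in control conditions, a change of -0.35 that did not pass (limma paired-fit adjusted p = 0.126). In wild-type cells its change was 0.088. The supercomplex factor Cox7a2l had -0.072 and 0.125.

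The restricted forms gave mostly negative changes, but those with negative changes had low signals. Over all arrays Cox8b, Cox6b2, Cox7a1, Cox4i2 and Cox8c had means of 5.68, 6.155, 6.31, 6.43 and 6.59. These lie nearer to the dim limit of 5.36 than the mean of Cox6a2, 7.64, which rose. Whether signals at this level follow the isoforms was not tested. Cox4i2, the form that hypoxia is known to favour in lung, had -0.049 in knockout-labelled and -0.20 in wild-type cells. The muscle forms Cox7a1 and Cox8b had -0.048 and -0.28, and -0.074 and -0.035. The testis forms Cox6b2 and Cox8c had -0.15 and -0.12, and -0.23 and -0.16. Cox6a2, a muscle form, had 0.20 and 0.18. None of these 6 was called, and the nearest was Cox8c averaged over genotypes (-0.19, limma paired-fit adjusted p = 0.0756), which read 6.44, 6.68 and 6.56 in knockout-labelled ischemia arrays, against 6.63, 7.07 and 6.68 in their controls, and 6.43, 6.45 and 6.39 in wild-type ischemia arrays, against 6.63, 6.49 and 6.64 in theirs.

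All 17 ATP synthase genes were higher averaged over genotypes, with a median change of 0.21. They had medians of 0.11 in knockout-labelled cells (14 of 17 higher) and 0.28 in wild-type cells (17 of 17 higher). The paired fit called 4 of the 17 averaged over genotypes, all higher, where it called 12.5% of all genes tested. Atp5md, a small membrane protein linked to the dimer of the enzyme, had the largest averaged change of the 90 genes. It read 10.51, 10.51 and 10.46 in knockout-labelled ischemia arrays, against 10.10, 9.79 and 9.78 in their controls. In wild-type cells it read 10.47, 10.35 and 10.18 after ischemia, against 9.12, 10.52 and 9.47 in control conditions. The knockout-labelled groups did not overlap, whereas wild-type control array 2 was the highest wild-type array. The averaged rise was 0.61 (SE 0.14, 1.53-fold, limma paired-fit adjusted p = 0.0159), and the 2 further probe sets of the symbol were higher by 0.38 and 0.51. The call was lost without wild-type pair 1 and without knockout-labelled pair 2 or 3.

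The other 3 were Atp5mpl, a second small membrane protein (0.33), and the peripheral stalk subunits Atp5pb (0.29) and Atp5h (0.27), with limma paired-fit adjusted p = 0.0301, 0.0435 and 0.0412. Atp5pb kept its call without wild-type pair 2 alone, and Atp5mpl and Atp5h kept theirs without that pair or without knockout-labelled pair 1; in the other variations the calls were lost. Atp5o, the stalk protein that meets the catalytic head, rose in wild-type cells. It read 9.15, 9.19 and 9.21 in wild-type ischemia arrays, against 8.66, 9.04 and 8.50 in control arrays, without overlap (0.45, SE 0.11, limma paired-fit adjusted p = 0.0411). In knockout-labelled cells it read 9.04, 8.77 and 9.13 after ischemia, against 8.87, 8.78 and 9.14 in control conditions, a change of 0.050. The difference of its changes did not pass (limma paired-fit adjusted p = 0.535). Atp5a1 and Atp5b, the subunits of the catalytic head, had averaged changes of 0.074 and 0.14 and were not called; Atp5a1 was picked after its values were seen. Atp5k, the dimmest of the 17, had 0.028 in knockout-labelled and 0.38 in wild-type cells. Atp5g1, Atp5g2 and Atp5g3 encode the same mature c subunit of the rotor. Their changes were 0.12, -0.028 and -0.035 in knockout-labelled cells and 0.23, 0.40 and 0.16 in wild-type cells, and 0 of these passed.

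The genotypes were also compared directly. In control conditions 75 of the 90 genes were higher in knockout-labelled than in wild-type cells, with a median difference of 0.13 against 0.003 over all genes. It was 0.081 without wild-type control array 3 (62 of 90 higher) and 0.21 without control array 2 (84 of 90). Limma called 0 of them, with 10 higher and 0 lower at an unadjusted p under 0.05, where 0.0589% of all genes were called. The complex medians were 0.13 for complex I, 0.13 for complex III, 0.17 for complex IV and 0.16 for ATP synthase, 0.014 for complex II with 2 of 4 genes lower, and -0.031 for the assembly factors; Cycs had -0.11. Cox7a2l had the smallest p, at 10.33 ± 0.092 in knockout-labelled against 9.96 ± 0.18 in wild-type control arrays (SD, n = 3 each; difference 0.37, SE 0.10, limma adjusted p = 0.540). Without wild-type control array 2 limma called 1 gene, Ndufa4. After ischemia 36 of the 90 were higher and 54 lower in knockout-labelled cells, with a median difference of -0.037. Without knockout-labelled ischemia array 2 52 lay higher and 38 lower and the median was 0.018, so the direction turned on 1 array, and without wild-type ischemia array 2 the median was -0.021. Limma called 0, with 1 higher and 0 lower at an unadjusted p under 0.05, where 0.714% of all genes were called. Quantile normalization of the arrays gave 45 higher and 45 lower, and equal array medians gave 26 and 64.

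The change after ischemia was smaller in knockout-labelled than in wild-type cells for 75 of the 90 genes, with a median difference of -0.16 against 0.008 over all genes. Without wild-type control array 3 it was -0.083, with 67 of the 90 smaller. Limma called 0 of these differences, with 0 higher and 4 lower at an unadjusted p under 0.05 (0% of all genes called), and the paired fit also called 0 (0.308% of all genes). The wild-type control arrays enter this difference, the wild-type change and the genotype difference in control cells, so these 3 are not independent. By complex the median difference was -0.15 for complex I, -0.17 for complex II, -0.19 for complex III, -0.16 for complex IV and -0.17 for ATP synthase, against -0.087 for the assembly factors. Cycs (0.050), Uqcrb (0.097) and Atp5md (-0.030) were among the genes with differences near 0, with 95% intervals of -0.29 to 0.39, -0.41 to 0.61 and -0.62 to 0.56.

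Scaling moved the share of higher genes. After quantile normalization 44 of the 90 were higher in knockout-labelled cells (median -0.010) and 74 in wild-type cells (median 0.15), and the count averaged over genotypes was 65, against 77 as deposited. Cyclic loess gave 40 (median -0.011), 75 (0.16) and 67, and equal array medians gave 58 (0.075), 85 (0.29) and 80. Under these scalings 74, 75 and 81 of the 90 changes were smaller in knockout-labelled cells. The direction of the knockout-labelled median, in contrast, differed between scalings. Cycs, Ndufa6 and Ndufaf1 rose averaged over genotypes under both scalings of the paired fit and without any one of the 6 pairs.

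Related genes outside the chain were counted in the paired fit of limma averaged over genotypes, where 12.5% of all genes were called and the median change was -0.0002. For these lists and those of the next paragraph, a count of genes that rose is a count of calls in the higher direction. Of 13 tested complex IV assembly factors 4 rose (median 0.14), among them the copper chaperone Cox17 (0.36, limma paired-fit adjusted p = 0.00739). Of 17 other assembly factors 5 rose (median 0.18), with Foxred1, a complex I assembly factor, at 0.49 (limma paired-fit adjusted p = 0.00336). A list of carriers and channels for ADP, ATP and phosphate also held the creatine kinase gene Ckmt1. Of its 7 tested genes 4 rose (median 0.23), with the adenine nucleotide carrier Slc25a5 at 0.30. Of 17 genes of the tricarboxylic acid cycle and pyruvate entry 3 rose (median 0.18), with fumarase, Fh1, at 0.34. Of 9 genes of coenzyme Q synthesis 1 rose (median 0.16), Coq3, by 0.28. Calls in the lower direction numbered 0 in each of these 5 lists.

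Of 14 regulators of mitochondrial biogenesis 2 rose (median 0.052), the mitochondrial transcription factor gene Tfam (0.34, limma paired-fit adjusted p = 0.0412) and Tfb1m, a methyltransferase of the mitochondrial ribosome (0.38, limma paired-fit adjusted p = 0.0162). Of 10 genes on a list of hypoxia-linked genes 5 rose (median 0.24). Pdk1, which keeps pyruvate out of mitochondrial oxidation, had 0.48 in knockout-labelled and 0.28 in wild-type cells (averaged 0.38, limma paired-fit adjusted p = 0.0102), and Bnip3, Egln3 and Higd1a rose by 0.32, 0.32 and 0.31. Of 15 listed mitochondrially encoded chain genes 2 matched a probe set, ND3 and COX2. Their changes were 0.20 and 0.0098 in knockout-labelled cells and -0.17 and -0.15 in wild-type cells, and 0 were called (limma paired fit; 0 also at an unadjusted p under 0.05).

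Markers of cell types moved as well. Of the 9 microglia markers 3 were higher after ischemia in knockout-labelled cells and 8 in wild-type cells, with medians of -0.069 and 0.12, and Cx3cr1 fell averaged over genotypes (-0.43, limma paired-fit adjusted p = 0.00434). Aif1 rose in wild-type cells (0.52, limma paired-fit adjusted p = 0.0230), with a change of -0.20 in knockout-labelled cells. Their mean signal was 9.74 to 9.82 in knockout-labelled ischemia arrays, against 9.85 to 9.94 in controls, and 9.92 to 10.34 in wild-type ischemia arrays, against 9.76 to 10.34 in controls. The 5 fibroblast and mural markers above the dim limit were lower in both genotypes, with 0 called, while Dcn and Lum were not above it. The mean of the 7 was 5.88 to 6.12 in knockout-labelled ischemia arrays, against 6.06 to 6.28 in controls, and 5.84 to 6.12 in wild-type ischemia arrays, against 6.01 to 6.54 in controls. Of the 4 monocyte and border macrophage markers above the limit 2 were higher in each genotype, while Ccr2 and Cd163 were not above it. Pf4, a chemokine, rose by 0.58 in knockout-labelled and 0.70 in wild-type cells (limma paired-fit adjusted p = 0.0249 and 0.00249). The mean of that list was 6.58 to 6.76 in knockout-labelled ischemia arrays, against 6.50 to 6.52 in controls without overlap, and 6.48 to 6.84 in wild-type ischemia arrays, against 6.35 to 6.79 in controls. The part of these markers in the changes of the chain genes was not tested.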

How the data were processed

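The deposited values are log2 signals of 35557 probe sets; per the submitters' processing notes, the tools were RMA and Affymetrix Expression Console 1.1. RMA includes background correction, quantile normalization and a summary over probes. No source used here gives the annotation's build. Symbols (21789 probe sets with 1, 1621 with several, 12147 not listed) were updated through Entrez identifiers to a GRCm38.p6 gene table. Probe sets with several symbols were left out, among them those of Cox7c and Ndufb4. Groups came from the titles. Of 18 chain genes with several probe sets, 15 had the same direction in all.

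Group means were fitted over all 12 arrays (limma 3.58.1, R 4.3.3, lmFit and eBayes) for 15273 genes, with Benjamini-Hochberg adjustment over all of them. Arrays carry no counts, so their number limits the precision. Same-numbered arrays correlated in their deviations from the group means at 0.36, 0.32 and 0.49 in knockout-labelled and 0.48, 0.73 and 0.48 in wild-type cells, so numbers were taken to pair within a genotype, although their meaning is unstated. Over the 90 chain genes alone these correlations were 0.53, 0.31 and 0.68 in knockout-labelled and 0.010, 0.41 and 0.26 in wild-type cells. There, knockout-labelled ischemia array 2 correlated better with control array 1 (0.61) than with control array 2. Wild-type ischemia array 3 also correlated better with control array 1 (0.33) than with control array 3. Wild-type ischemia array 1 had 0.023 with control array 2, above its value with control array 1. The paired fit has 1 block level per genotype and number. The steps were tested on simulated data.

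The genes, lists and tests were chosen with earlier results of these data known. Named are called members and, in each complex, the 2 largest and the smallest averaged changes and the brightest and dimmest member. Isoform families, Ndufab1, complex II, Cyc1 and Cycs are also named, with up to 4 genes of each other list. Others are marked as picked after their values were seen. Alternatives were scaling, filters, probe set choice, variance trend, blocks and arrays left out; leaving out same-numbered pairs, and joining the pairing with other scalings, was chosen after seeing the data.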

Additional observations from a re-analysis of the deposited data

How the results depend on the processing

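Counts of called genes depended on the pairing: 0 without it over all 12 arrays, against 8 in wild-type cells and 19 averaged over genotypes with the replicate block within genotype. Leaving out 1 array in the fit without pairing gave 0 to 3 called genes and medians of 0.17 to 0.34 in wild-type cells, 0 to 7 averaged and 0 to 1 for the genotypes in control conditions, each highest without wild-type control array 2. Of the alternatives chosen after seeing the data, the paired fit without knockout-labelled pairs 1, 2 and 3 called 8, 3 and 9 in wild-type cells and 18, 5 and 8 averaged, and 3 in knockout-labelled cells without pair 1. Without wild-type pairs 1, 2 and 3 it called 4, 28 and 8 averaged, 20 in wild-type cells without pair 2, and 2 in knockout-labelled cells without pair 1. With quantile normalization it called 1 in wild-type cells and 7 averaged, and with cyclic loess 4 and 9. The cause of these shifts was not tested. A replicate block of 3 levels over all arrays called 0. No change of a called gene reversed under any alternative run, and the median difference of the ischemia effects was -0.24 to -0.083 over them. With 3 arrays a group and changes of mostly under 0.5 on the log2 scale, genes below the threshold were not shown to be unchanged.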
